A study of Homo sapiens with 6 samples.

Results

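The genes described here are 54 interferon-stimulated effector genes, a list of antiviral and other interferon-induced proteins matched by symbol in the deposited gene count table. All 54 were among the 61155 symbols of the table, and 49 were among the 16633 genes with enough counts to be tested. The cells were of the human line MDA-MB-231, derived from a breast cancer and mesenchymal in character. Cells transfected with a VASP siRNA (3 libraries) were compared with cells transfected with a negative control siRNA (3 libraries), and both groups were harvested 48 hours after transfection. The treatment notes and characteristics name these siRNAs, delivered by transient lipofection, while the sample titles name a short hairpin against VASP and an empty plko vector, so the reagent is uncertain although the grouping is the same. VASP is an actin-binding protein that promotes filament growth at the leading edge and at adhesions. The comparison asks how the transcriptome differs after VASP knockdown. All knockdown libraries carry the same label, so effects of VASP loss and of the reagent itself cannot be told apart.

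Type I and type III interferons act through cell surface receptors and the kinases JAK1 and TYK2 to assemble ISGF3, a transcription factor complex that contains STAT2 and IRF9. ISGF3 and related IRF proteins bind the interferon-stimulated response element, in which GAAA words repeat at a short spacing, in the promoters of the effector genes. The effectors sense or degrade foreign RNA, deplete nucleotides, block virus entry or release, and attach ISG15 or ADP-ribose to proteins. Many breast cancer lines express part of this programme without added interferon.

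Promoters of members were searched for a 10-base word, GAAA repeated after 2 bases of any kind, on both strands (TTTC repeated in the same way on the other strand), in RefSeq windows (build GRCh38.p14) from 250 bases before to 50 bases after an annotated start. Of the 45 members with a window, 33 held this word (73.3%), against 1195 of 27305 symbols with a window (4.38%). The 8 promoters below belong to the members with the word and the smallest p in the knockdown comparison. They show the 200 bases before the start, with the word in capitals, so that its position and copy number can be read.
IFIT3: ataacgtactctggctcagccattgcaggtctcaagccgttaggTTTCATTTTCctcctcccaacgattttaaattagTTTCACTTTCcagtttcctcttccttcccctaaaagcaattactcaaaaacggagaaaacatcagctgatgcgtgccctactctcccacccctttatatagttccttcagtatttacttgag
IFI44: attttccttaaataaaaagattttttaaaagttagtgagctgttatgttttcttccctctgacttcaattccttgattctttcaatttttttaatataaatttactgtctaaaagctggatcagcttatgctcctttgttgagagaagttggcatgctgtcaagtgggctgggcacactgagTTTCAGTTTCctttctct
SAMD9: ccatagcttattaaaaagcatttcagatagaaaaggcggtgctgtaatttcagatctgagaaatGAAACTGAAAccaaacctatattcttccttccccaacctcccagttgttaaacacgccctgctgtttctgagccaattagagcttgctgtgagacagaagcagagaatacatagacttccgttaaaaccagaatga
IFIT1: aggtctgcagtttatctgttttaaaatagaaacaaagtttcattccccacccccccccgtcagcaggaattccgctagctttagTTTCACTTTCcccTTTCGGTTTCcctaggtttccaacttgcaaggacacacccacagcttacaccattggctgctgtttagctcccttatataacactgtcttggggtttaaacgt
HERC5: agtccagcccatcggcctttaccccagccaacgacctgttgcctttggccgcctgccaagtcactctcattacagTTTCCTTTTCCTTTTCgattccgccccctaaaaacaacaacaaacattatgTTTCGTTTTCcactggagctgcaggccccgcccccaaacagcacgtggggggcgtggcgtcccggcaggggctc
RSAD2: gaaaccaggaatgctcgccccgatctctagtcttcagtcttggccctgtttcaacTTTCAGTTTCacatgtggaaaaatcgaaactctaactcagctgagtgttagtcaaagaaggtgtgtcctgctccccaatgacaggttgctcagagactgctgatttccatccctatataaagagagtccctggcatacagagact
DDX60: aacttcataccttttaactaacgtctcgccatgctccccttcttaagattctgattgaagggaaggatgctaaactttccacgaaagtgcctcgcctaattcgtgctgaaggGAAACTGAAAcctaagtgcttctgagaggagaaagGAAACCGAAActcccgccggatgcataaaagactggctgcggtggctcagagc
NMI: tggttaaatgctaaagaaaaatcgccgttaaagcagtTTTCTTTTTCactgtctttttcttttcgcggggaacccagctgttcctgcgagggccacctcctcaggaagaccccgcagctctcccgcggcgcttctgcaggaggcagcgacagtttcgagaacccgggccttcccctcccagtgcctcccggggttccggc
These lie at chr10:89327797-89327996 (plus strand), chr1:78649589-78649788 (plus), chr7:93117980-93118179 (minus), chr10:89392423-89392622 (plus), chr4:88456919-88457118 (plus), chr2:6877577-6877776 (plus), chr4:168318753-168318952 (minus) and chr2:151289669-151289868 (minus). In the stretches shown, IFIT3, IFIT1 and DDX60 each carried 2 copies, and HERC5 carried 3, of which the first 2 overlap. IFIT3 has another annotated start, not shown, whose window held 2 more copies, beginning at -94 and -51.

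The word was also present in members that fell or did not pass the test, and 3 of those windows are shown for contrast. LGALS3BP and GBP1 fell, and IFITM3, the most abundant member per length, did not pass the test.
LGALS3BP: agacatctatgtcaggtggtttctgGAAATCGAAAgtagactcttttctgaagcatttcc
GBP1: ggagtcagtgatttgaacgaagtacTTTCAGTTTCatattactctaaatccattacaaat
IFITM3: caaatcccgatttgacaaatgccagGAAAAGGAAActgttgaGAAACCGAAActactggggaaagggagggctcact
These lie at chr17:78979947-78980006, chr1:89065301-89065360 and chr11:320861-320937, all on the minus strand. The word stood in 17 of 21 members with a window that rose, in 2 of 3 that fell, and in 14 of 21 that did not pass or were not tested. Members with a window and no such word in it were CMPK2, SP110, SP100, HERC6, SAMD9L, TDRD7, UBE2L6, STAT2, OAS1, XAF1, IFI35 and TRIM25. Of 55 distinct matches in members, 46 began between 150 bases and 1 base before the start, and the median first base lay at -73. A match is a description of letters, and its absence says only that they are not in this window.

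**Figure D1:**
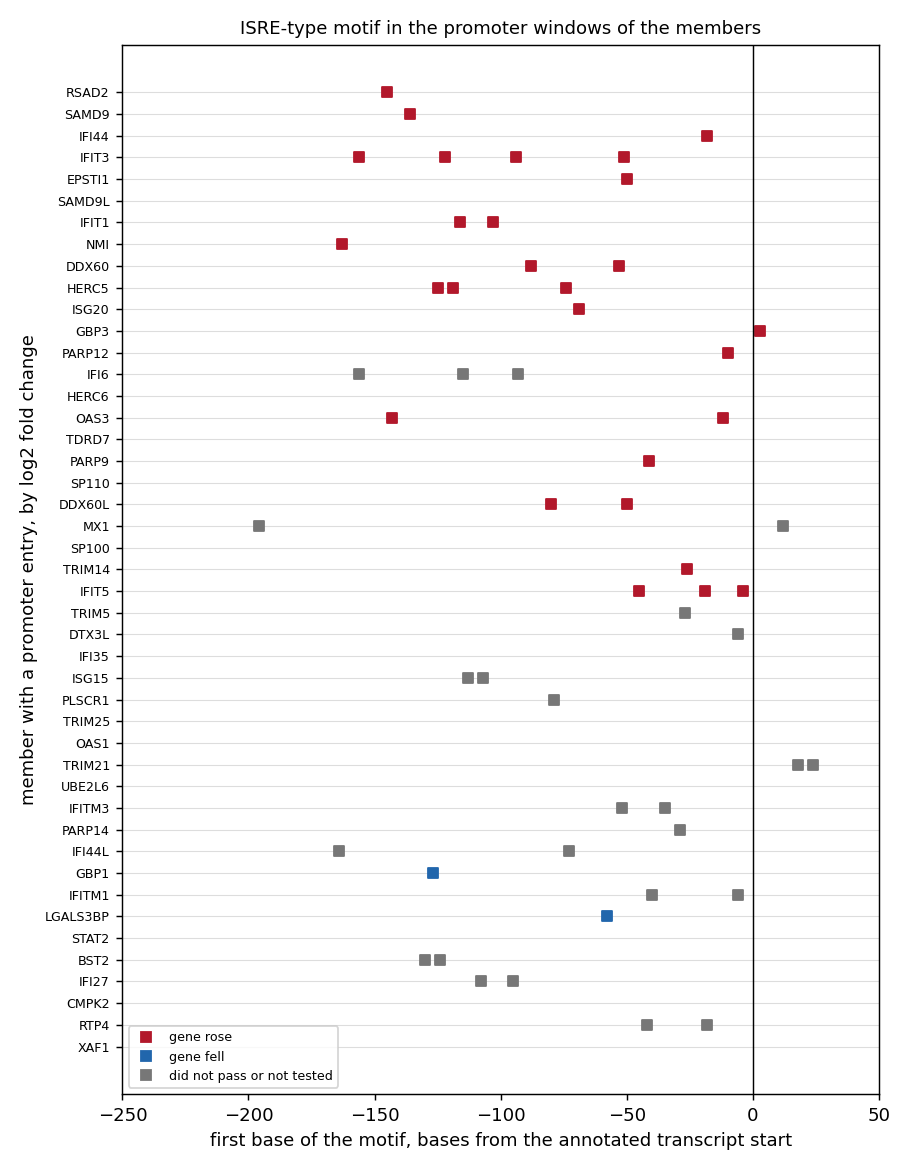
Position of the GAAA repeat word (x axis, bases from the annotated start, 0 marked by the line) in the windows of the 45 members with a promoter entry, ordered by log2 fold change with members not tested at the bottom and coloured by the test. Most of the 55 matches sit within 150 bases before the start, and members that rose, fell and did not pass all carry them.

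Libraries held 28856610 to 30055503 counts, and 26986 to 27646 symbols had a count. VASP had 396, 379 and 360 counts in the knockdown libraries, against 4544, 5036 and 4708 in the control libraries (log2 fold change -3.69, SE 0.06, edgeR adjusted p = 8.3e-24). Markers of the labelled line (VIM, CD44, KRT8, KRT18, KRT7 and AXL) summed to 5133 to 5242 CPM (counts scaled to library size) in knockdown and 5316 to 5433 CPM in control libraries, and the hormone receptors ESR1 and PGR stayed under 1 CPM. Of 12 leukocyte markers, 10 lay under 1 CPM and MS4A1 and CLEC4C were at 0. Their summed level was 8.38 to 10.5 CPM in knockdown and 9.19 to 10.8 CPM in control libraries, mostly CD8A and CD14. The sums were 1.91 to 2.44 CPM in knockdown and 2.7 to 3.43 CPM in control libraries for 3 endothelial markers, and 0.681 to 1.15 CPM in knockdown and 0.588 to 1.17 CPM in control libraries for 4 fibroblast markers, of which DCN and LUM were at 0. KRT7, a keratin among the markers of the line, fell (log2 fold change -0.30, adjusted p = 3.8e-05). PECAM1, an endothelial marker, fell by edgeR (-0.46, adjusted p = 0.026) but did not pass with DESeq2 (adjusted p = 0.1), and the part of these markers in the results was not tested.

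More members rose than fell after VASP knockdown. By edgeR's quasi-likelihood test at an adjusted p under 0.05, 25 of the 49 tested members rose, where 18.9% of all tested genes did, and 3 fell (STAT2, LGALS3BP and GBP1), where 18.3% did. The other 21 did not pass. The median log2 fold change was 0.23 over tested members and -0.01 over all tested genes. In 26 members every knockdown library stood above every control library, where 24.1% of all tested genes did, and in 3 every knockdown library stood below, where 23.5% did. Changes were mostly small: the members that rose had a median fold of 1.40, and 9 of them reached 1.5-fold. Against a null of 1.2-fold, 12 members rose, where 1.95% of all genes did, and none fell by edgeR (0 at an unadjusted p under 0.05), where 3.78% did. In bulk RNA, a change in the share of expressing cells and a change in RNA per cell cannot be told apart.

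Relative to the control mean, the median log2 ratio over the 49 members was 0.20, 0.24 and 0.18 in the 3 knockdown libraries, and 0.03, 0.01 and -0.02 in the 3 control libraries. The number of members above the control mean was 37, 39 and 32 in knockdown libraries and 33, 26 and 17 in control libraries, so by this count knockdown library 3 lay below control library 1. All 28 members called kept their sign under every alternative processing. The members that rose had a median GC content of 44%, against 46.7% over tested members and 48.6% over all genes. After a correction for GC content and exon length, 25 members rose, where 17.2% of genes did, and 4 fell, where 12.1% did, with a median log2 fold change of 0.23 over members and 0.03 over all genes. That correction ended the calls of IFIT5, DDX60L, PARP9, SP100 and LGALS3BP, and it brought ISG15, MX1, MX2 and IFI6 past the threshold upward and PARP14 and GBP2 downward.

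**Figure D2:**
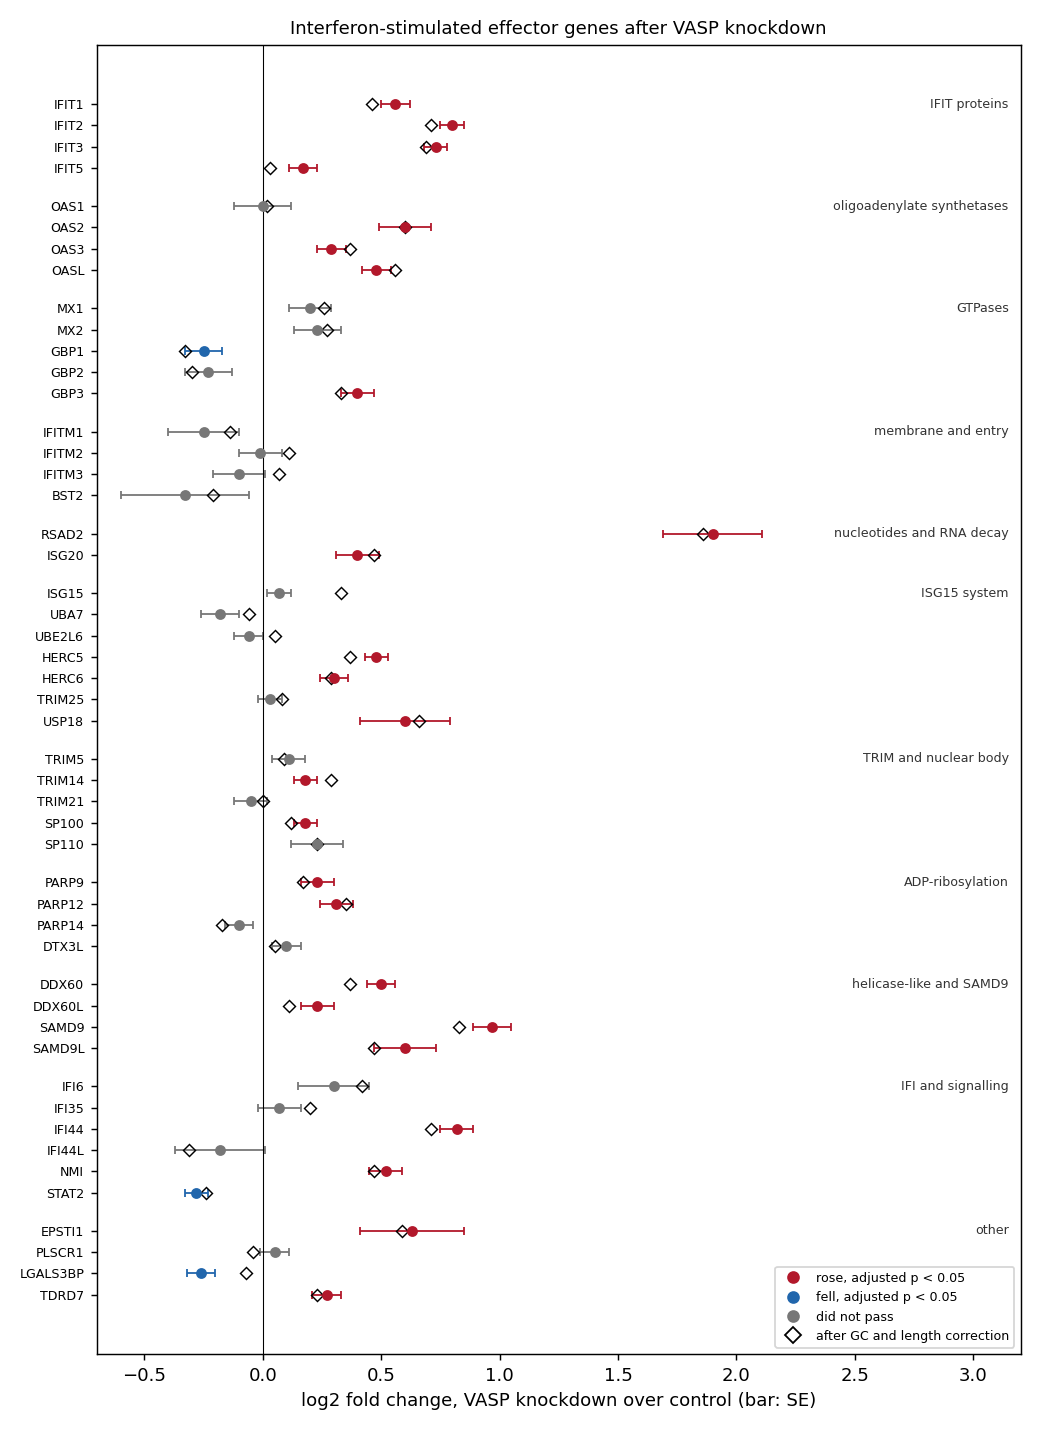
Log2 fold change of VASP knockdown over control (x axis) for the 49 tested members in 11 role groups, with bars for the SE, colours for the edgeR call and open diamonds for the value after correction for GC content and length. RSAD2 stands alone at 1.90, SAMD9, IFI44, IFIT2 and IFIT3 follow between 0.73 and 0.97, and the 4 tested membrane proteins lie at or below 0, with IFITM2 and IFITM3 above it once corrected.

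The IFIT proteins, which bind foreign RNA through repeat-rich folds, all rose. Their genes lie side by side on chromosome 10 (89283694 to 89420997, GRCh38). IFIT2 stood at 90.5, 99.5 and 93.2 CPM in the knockdown libraries, against 53.9, 52.8 and 55.8 CPM in the control libraries (log2 fold change 0.80, SE 0.05, adjusted p = 3.1e-11). About 10.3% of its exon bases overlap other symbols, so shared fragments were not counted. IFIT3, the binding partner that stabilises IFIT1 and IFIT2 complexes, stood at 126, 134 and 130 CPM in knockdown, against 77.6, 77.8 and 79.6 CPM in control (log2 fold change 0.73, SE 0.05). IFIT1, which recognises RNA caps that lack methylation, stood at 59.0, 62.6 and 59.0 CPM in knockdown, against 42.4, 38.1 and 42.0 CPM in control (log2 fold change 0.56, SE 0.06, adjusted p = 6.4e-08). In these 3 genes the knockdown libraries lay far above the control libraries, with a spread within each group much smaller than the gap. IFIT5 changed least, at 33.3 ± 1.63 CPM in knockdown and 29.7 ± 1.41 CPM in control (SD, n = 3 each; log2 fold change 0.17, SE 0.06, edgeR adjusted p = 0.036). Its call was lost without control library 2 (0.061), control library 3 (0.13), knockdown library 1 (0.05) or knockdown library 3 (0.18), given as adjusted p, and its log2 fold change was 0.03 once GC and length were corrected for.

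Of the oligoadenylate synthetase family, 3 of 4 rose. OAS1, OAS2 and OAS3 make the messenger that activates RNase L when they meet dsRNA, and OASL lacks that activity and acts with the sensor RIG-I. OAS2 had 8.51, 9.37 and 7.39 CPM in knockdown libraries, against 5.45, 5.31 and 5.91 CPM in control libraries (log2 fold change 0.60, SE 0.11, adjusted p = 1.0e-04). OAS3 had 55.9, 56.3 and 48.9 CPM in knockdown libraries, against 44.2, 42.5 and 45.2 CPM in control libraries (log2 fold change 0.29, SE 0.06, adjusted p = 4.8e-04). OASL, which lies apart from the other members of the family on chromosome 12, had 55.5, 58.6 and 51.3 CPM in knockdown, against 37.6, 41.6 and 39.0 CPM in control (log2 fold change 0.48, SE 0.06, adjusted p = 1.2e-06). The groups did not overlap in any of the 3. OAS1, their neighbour, had 7.48 ± 0.876 CPM in knockdown and 7.5 ± 1.29 CPM in control (SD, n = 3 each), with a log2 fold change of -0.00 (SE 0.12) and overlapping groups.

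The interferon-induced GTPases were split. GBP3, a guanylate-binding protein, rose, with 23.8, 26 and 24.4 CPM in knockdown libraries against 20.4, 16.9 and 19.0 CPM in control libraries (log2 fold change 0.40, SE 0.07, adjusted p = 1.5e-04). GBP1, its neighbour on chromosome 1, which coats intracellular pathogens, fell, with 11.3, 11.2 and 9.98 CPM in knockdown libraries against 13.2, 12.4 and 13.1 CPM in control libraries (log2 fold change -0.25, SE 0.08, adjusted p = 0.02). The call of GBP1 was lost without control library 1 (adjusted p = 0.057) or knockdown library 3 (adjusted p = 0.12), and with DESeq2 (adjusted p = 0.067). GBP2 had a log2 fold change of -0.23 (SE 0.10, adjusted p = 0.084) and overlapping groups, and passed downward without control library 3 (adjusted p = 0.0012). The dynamin-like proteins MX1 and MX2, which trap viral nucleocapsids, had log2 fold changes of 0.20 and 0.23, neither of which passed (adjusted p = 0.093 and 0.073). MX2 passed without control library 1 (adjusted p = 0.012).

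Proteins that act at the membrane did not pass the test. None of the 4 tested passed by edgeR (0 at an unadjusted p under 0.05 as well, and 0 by DESeq2). All 4 had negative log2 fold changes, but IFITM2 and IFITM3 were positive after the GC and length correction (0.11 and 0.07), and IFITM2, which lay close to 0, also without a low-count filter (0.01) and without any 1 of control libraries 1 and 2 and knockdown libraries 1 and 3 (0.01 to 0.07). IFITM3, which blocks fusion of viruses with endosomes, was the most abundant member per length, at 397 ± 43.3 CPM per kb of exon in knockdown and 425 ± 51.7 CPM per kb in control (SD, n = 3 each). It stood at 446, 511 and 413 CPM in knockdown libraries and at 533, 513 and 421 CPM in control libraries (log2 fold change -0.10, SE 0.11, adjusted p = 0.52), so the groups overlapped. IFITM1 and IFITM2, its neighbours on chromosome 11, overlap each other in 37.5% and 22.7% of their exon bases, and shared fragments were not counted. The log2 fold changes were -0.25 for IFITM1, -0.01 for IFITM2 and -0.33 for BST2, the tether that holds budding virions, which had 26 to 51 counts in knockdown and 30 to 62 in control libraries. In IFITM3, IFITM2, IFITM1 and BST2 the third library of each group was the lowest, as in 14 of 49 members and 2585 of 16633 genes. Without control library 3, IFITM3 (-0.19, adjusted p = 0.028), IFITM1 (-0.41, adjusted p = 0.012) and BST2 (-0.60, adjusted p = 0.027) passed downward on the log2 scale. LY6E, a GPI-anchored entry factor, had 1 count over all libraries, but it is annotated on 2 sequences, so its level could not be read.

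The largest change of any member was that of RSAD2. RSAD2, or viperin, converts CTP into a chain terminator of viral polymerases. It had 83, 60 and 65 counts in knockdown libraries, against 16, 21 and 17 counts in control libraries. These are 2.71, 2.03 and 2.21 CPM in knockdown and 0.548, 0.724 and 0.588 CPM in control, a 3.72-fold difference (log2 fold change 1.90, SE 0.21, adjusted p = 3.0e-07). RSAD2 lies below the level set for detailed description and was singled out after its values were seen. CMPK2, a nucleotide kinase whose gene lies beside RSAD2 on the opposite strand of chromosome 2, had too few counts for the test. Its counts were 10, 17 and 10 in knockdown libraries and 2, 1 and 7 in control libraries, so the groups did not overlap. Without a low-count filter it had a log2 fold change of 1.83 (edgeR adjusted p = 0.002), and it was also named after its values were seen. ISG20, an exonuclease that degrades RNA, had 11.9, 12.4 and 10.7 CPM in knockdown libraries, against 9.80, 8.28 and 8.47 CPM in control libraries (log2 fold change 0.40, SE 0.09, adjusted p = 0.0015).

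**Figure D3:**
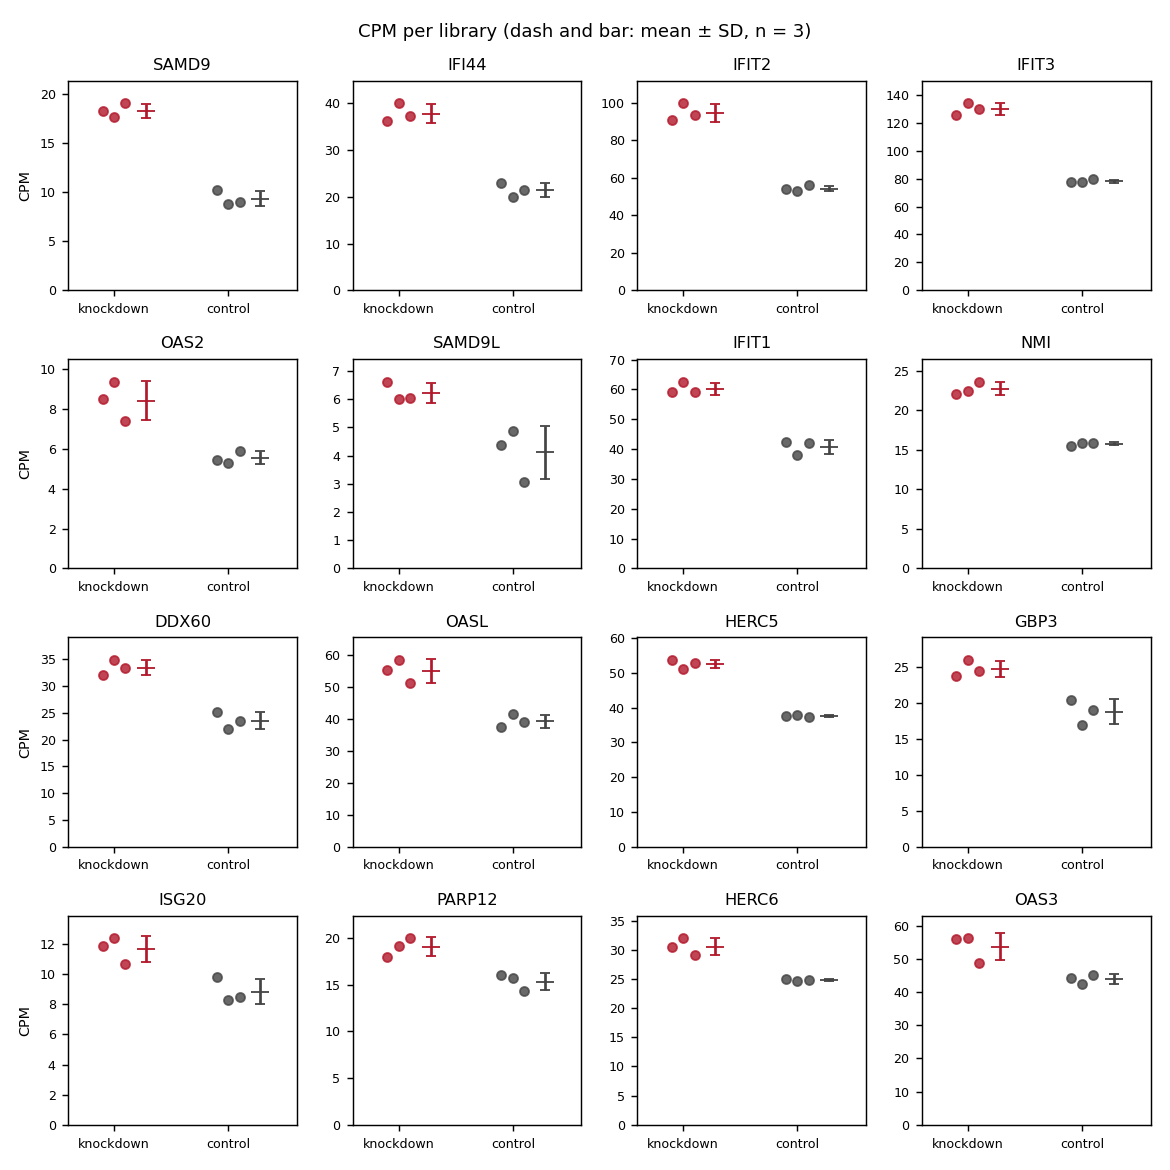
CPM in each library (points) with mean ± SD (dash and bar, n = 3) for 16 members, with each axis starting at 0. These changed by the most among members past the edgeR threshold that had non-overlapping groups and at least 1 in mean log2 CPM. Separation of the groups was therefore fixed by the choice of members, but its direction was not. The knockdown points lie above the control points in each panel, from 18.3 against 9.34 CPM on average in SAMD9 to 53.7 against 44.0 CPM in OAS3.

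In the ISG15 system, HERC5, HERC6 and USP18 rose, while the modifier, its loading enzymes and TRIM25 did not pass. ISG15, a ubiquitin-like protein, stood at 61.5 ± 2.23 CPM in knockdown and 58.4 ± 1.61 CPM in control (SD, n = 3 each; log2 fold change 0.07, SE 0.05, edgeR adjusted p = 0.28). At a GC content of 64% it is the member highest in GC, and with GC and length corrected for its log2 fold change was 0.33 (adjusted p = 2.7e-05). UBA7, which activates ISG15, had a log2 fold change of -0.18 (adjusted p = 0.076), and passed downward without control library 3 (-0.25, adjusted p = 0.012). UBE2L6, which carries ISG15, had -0.06. HERC5, the main human ISG15 ligase, stood at 53.7, 51.2 and 52.7 CPM in knockdown libraries, against 37.7, 37.9 and 37.2 CPM in control libraries (log2 fold change 0.48, SE 0.05, adjusted p = 2.8e-07). HERC6, its neighbour on chromosome 4, stood at 30.4, 32 and 29.1 CPM in knockdown, against 24.9, 24.7 and 24.8 CPM in control (log2 fold change 0.30, SE 0.06, adjusted p = 5.0e-04). The control libraries of both HERC genes agreed to within 0.372 CPM (SD), and no knockdown library reached down to them. USP18, which removes ISG15 and restrains the interferon receptor, had 59, 78 and 52 counts in knockdown libraries, against 33, 44 and 44 counts in control libraries (log2 fold change 0.60, SE 0.19, adjusted p = 0.017). The call of USP18 was lost without control library 1 (adjusted p = 0.09) or knockdown library 2 (adjusted p = 0.12), and with DESeq2 (adjusted p = 0.06). TRIM25, an E3 ligase for the sensor RIG-I, had a log2 fold change of 0.03 (adjusted p = 0.64).

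TRIM and nuclear body proteins moved little. TRIM14, an adaptor of the MAVS pathway, stood at 112 ± 1.65 CPM in knockdown and 99.2 ± 6.59 CPM in control (SD, n = 3 each; log2 fold change 0.18, SE 0.05, edgeR adjusted p = 0.0083), and the call was lost without control library 2 (adjusted p = 0.068). SP100, a resident of PML bodies, also rose by 0.18 on the log2 scale (adjusted p = 0.0097), and by 0.12 with GC and length corrected for (adjusted p = 0.06). SP110, a relative of SP100, had a log2 fold change of 0.23 (adjusted p = 0.094) and passed without knockdown library 1 (adjusted p = 0.043). TRIM5, which recognises retroviral capsids, and TRIM21, an antibody receptor of the cytosol, had 0.11 and -0.05. Among the ADP-ribosylation genes, PARP12, a mono-ADP-ribosyltransferase, stood at 18, 19.2 and 20 CPM in knockdown libraries, against 16, 15.7 and 14.3 CPM in control libraries (log2 fold change 0.31, SE 0.07, adjusted p = 0.0018). PARP9 rose by 0.23 on the log2 scale (adjusted p = 0.012), a call lost without control library 2 (adjusted p = 0.062) and with GC and length corrected for (0.17, adjusted p = 0.059). DTX3L, the E3 ligase that pairs with PARP9 and lies next to it on chromosome 3, had 0.10 (adjusted p = 0.22). PARP14, from the same region, had -0.10 (adjusted p = 0.2), and passed downward without control library 3 (-0.15, adjusted p = 0.049).

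Helicase-like proteins and the SAMD9 pair all rose. SAMD9, a restriction factor for poxviruses on chromosome 7, had the largest change among members with a mean log2 CPM of 1 or more. It stood at 18.2, 17.6 and 19.0 CPM in knockdown libraries, against 10.2, 8.79 and 8.99 CPM in control libraries (1.96-fold, log2 fold change 0.97, SE 0.08, adjusted p = 3.4e-09). Its exons have the lowest GC content of the members, 36.1%, and its log2 fold change was 0.83 with GC and length corrected for (adjusted p = 1.1e-07). SAMD9L, the paralogue beside it, stood at 6.62, 6.02 and 6.03 CPM in knockdown, against 4.39, 4.86 and 3.08 CPM in control (log2 fold change 0.60, SE 0.13, adjusted p = 0.0011). DDX60, a helicase that acts with RNA sensors, stood at 32.1, 34.9 and 33.3 CPM in knockdown, against 25.2, 22.0 and 23.5 CPM in control (log2 fold change 0.50, SE 0.06, adjusted p = 2.4e-06). The groups did not overlap in any of these 3 genes. DDX60L, the neighbouring paralogue of DDX60 on chromosome 4, rose by 0.23 on the log2 scale (SE 0.07, adjusted p = 0.016). Its call was lost without control library 2 or knockdown library 3 (adjusted p = 0.057 each), and with GC and length corrected for (0.11, adjusted p = 0.23).

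The IFI genes and signalling partners moved in both directions. IFI44, an antiviral protein, stood at 36.2, 40.0 and 37.3 CPM in knockdown libraries, against 23.0, 19.9 and 21.4 CPM in control libraries (1.77-fold, log2 fold change 0.82, SE 0.07). IFI44L, its paralogue and neighbour on chromosome 1, had 52 to 72 counts in knockdown and 47 to 86 in control libraries, with a log2 fold change of -0.18 (SE 0.19) and overlapping groups. NMI, which binds STAT proteins and IFI35, stood at 22.1, 22.4 and 23.6 CPM in knockdown, against 15.5, 15.9 and 15.9 CPM in control (log2 fold change 0.52, SE 0.07, adjusted p = 2.5e-06). IFI35, its partner, had a log2 fold change of 0.07 (SE 0.09). STAT2, the ISGF3 subunit that carries the transactivation domain, fell, with 72.2, 70.2 and 68.4 CPM in knockdown libraries against 86.9, 88.3 and 81.3 CPM in control libraries (log2 fold change -0.28, SE 0.05, adjusted p = 1.1e-04). All 3 knockdown libraries of STAT2 lay below all control libraries, and the fall was -0.24 after the GC and length correction. IFI6, a membrane protein of the endoplasmic reticulum and mitochondria, had 0.30 (adjusted p = 0.13), and passed without knockdown library 3 (0.45, adjusted p = 0.012). IFI27 was at 0 in every library, but it is annotated on 2 sequences, so its level could not be read.

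Among the remaining members, TDRD7 and EPSTI1 rose and LGALS3BP fell. TDRD7, a Tudor domain protein that inhibits autophagy, stood at 37.9, 38.9 and 37.5 CPM in knockdown libraries, against 31.4, 30.6 and 32.5 CPM in control libraries (log2 fold change 0.27, SE 0.06, adjusted p = 5.2e-04). LGALS3BP, a secreted glycoprotein that binds galectins, was the second most abundant member per length, at 137 ± 5.67 CPM per kb in knockdown and 165 ± 13.4 CPM per kb in control (SD, n = 3 each). Its libraries stood at 468, 490 and 451 CPM in knockdown, against 585, 594 and 510 CPM in control (log2 fold change -0.26, SE 0.06, adjusted p = 7.9e-04), and did not overlap. Its exons have a GC content of 61.9%, and the log2 fold change was -0.07 with GC and length corrected for (adjusted p = 0.25). EPSTI1, induced in breast cancer cells by contact with stroma, had 33, 43 and 40 counts in knockdown libraries, against 27, 24 and 22 in control libraries (log2 fold change 0.63, SE 0.22, adjusted p = 0.027). The EPSTI1 call was lost without control library 2 (adjusted p = 0.075), control library 3 (0.071), knockdown library 2 (0.096) or knockdown library 3 (0.074), and with DESeq2 (adjusted p = 0.12). PLSCR1, a phospholipid scramblase, had a log2 fold change of 0.05. XAF1, an antagonist of XIAP, had 4 to 11 counts in either group, and RTP4, a chaperone of membrane receptors, had 5, 6 and 5 counts in knockdown and 2, 4 and 1 in control libraries, and neither was tested.

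**Figure D4:**
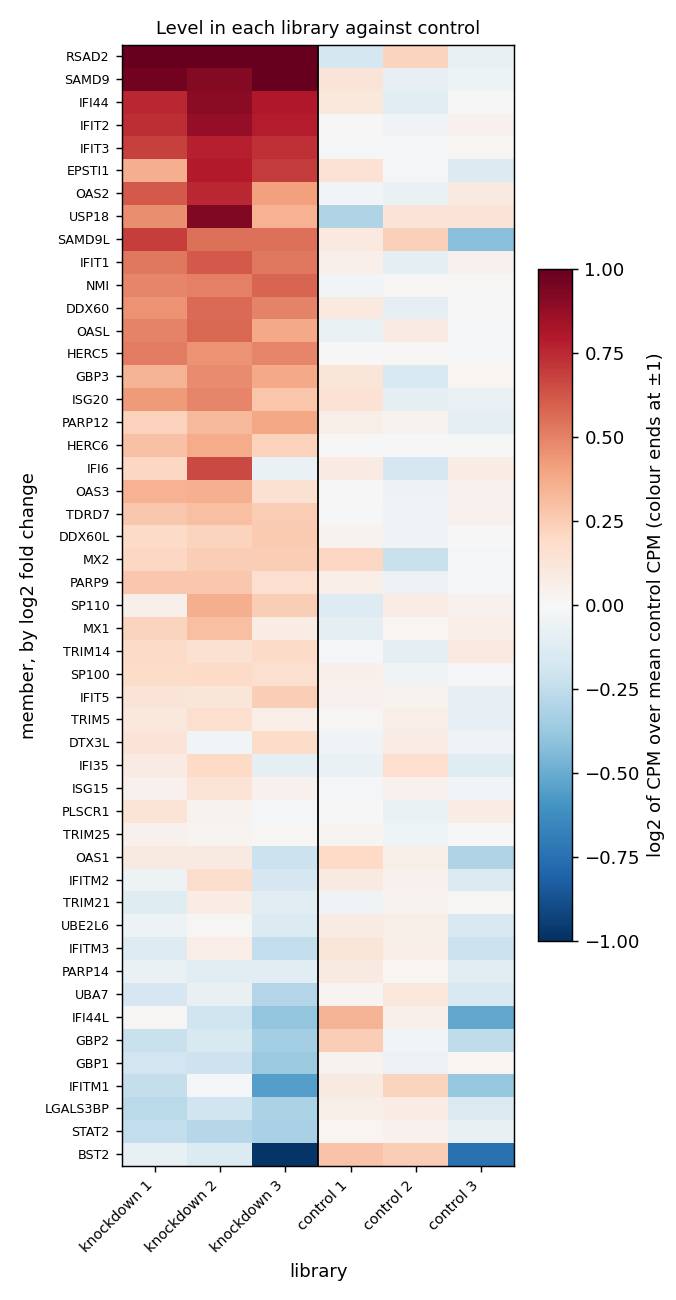
Log2 ratio of each library's CPM to the mean control CPM (colour, ending at ±1) for the 49 tested members, ordered by log2 fold change, with the 3 knockdown libraries left of the 3 control libraries. The top rows, from RSAD2 to HERC6, are red in all 3 knockdown libraries, and the third library of each group is the palest or bluest in IFITM3, IFITM1, BST2 and LGALS3BP.

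Levels per exon length spanned a wide range, and members that rose stood at high and at low levels along it. The members that rose had a median control level of 4.28 CPM per kb, and those that did not pass had 5.47 CPM per kb. Of the 4 most abundant members per length, IFITM3, LGALS3BP, IFITM2 and ISG15, LGALS3BP fell and the other members did not pass, although ISG15 passed upward with GC and length corrected for. IFIT3, the fifth, rose, with 51.3 ± 1.5 CPM per kb in knockdown and 30.9 ± 0.443 CPM per kb in control (SD, n = 3 each). At the low end RSAD2 had 0.491 ± 0.0741 CPM per kb in knockdown and 0.131 ± 0.0195 CPM per kb in control. Because of the abundant members, the summed CPM of all 54 members did not separate the groups: it was 2637, 2788 and 2551 in knockdown and 2644, 2593 and 2392 in control libraries.

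**Figure D5:**
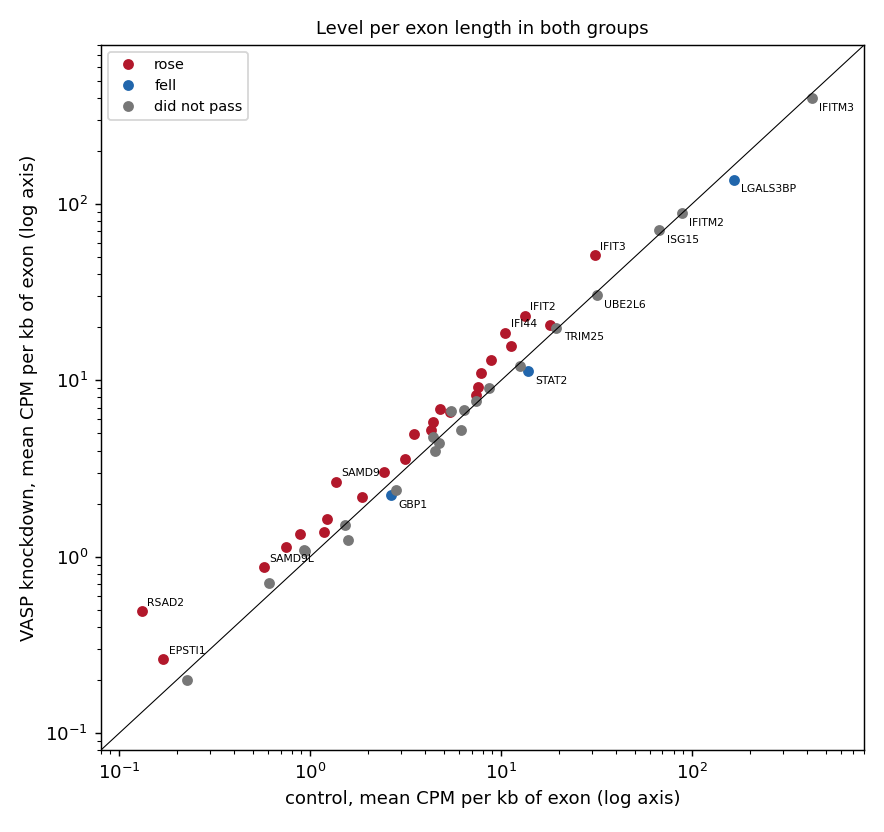
Mean level per exon length (CPM per kb, log axes) in knockdown (y) and control (x) for the 49 tested members, with a line of equality and colours for the edgeR call. RSAD2, SAMD9, IFI44, IFIT2 and IFIT3 stand farthest above the line, and IFITM3, LGALS3BP and STAT2 lie below it.

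In some clusters of neighbouring members all rose, and in others the calls were mixed or absent. Over all tested members 25 of 49 rose, and a link between position and direction was not tested. Taking members no more than 250000 bases apart, 30 members fell into 12 clusters. Every member rose in the clusters of the IFIT genes, of HERC6 and HERC5, of DDX60 and DDX60L, and of SAMD9 and SAMD9L. The edgeR calls of IFIT5 and DDX60L were lost with GC and length corrected for (adjusted p = 0.72 and 0.23). In the OAS cluster 2 of 3 rose, in the GBP cluster 1 rose and 1 fell, and in that of IFI44L and IFI44 and that of SP110 and SP100 1 of 2 rose. In the cluster of PARP9, DTX3L and PARP14 1 of 3 rose, in the IFITM cluster and the MX cluster no member passed by edgeR, and of CMPK2 and RSAD2 only RSAD2 was tested.

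Genes upstream of the members were looked at through lists of the interferon pathway. None of 10 interferon genes reached the test. IFNB1, IFNA1, IFNA2, IFNE, IFNW1, IFNG and IFNL2 were at 0 in all libraries, which allows up to 0.0998 to 0.104 CPM, and IFNL1 had 1 to 3 counts in each. That bound covers counting error only, and not fragments that align to more than 1 place, which go uncounted. Of 6 receptor genes 2 rose and 1 fell, where 18.9% of all tested genes rose and 18.3% fell. IFNAR1 (log2 fold change 0.26, adjusted p = 2.3e-04) and IFNGR1 (0.27, adjusted p = 0.0024) rose. IFNGR2, annotated on 2 sequences and so undercounted, fell (-0.51, adjusted p = 3.5e-04). IFNAR2 and IL10RB did not pass, at 36 to 59 and 19 to 40 counts per library. Of their exon bases 83.2% and 38.3% overlap other symbols, where shared fragments were not counted. With GC and length corrected for, IFNAR1 kept its call (0.18, adjusted p = 0.0036) and IFNGR1 lost it (0.16, adjusted p = 0.076), which left 1 receptor gene up and 1 down. Among the receptor kinases, JAK2 rose (0.42, adjusted p = 0.006). IRF9 lies on 2 sequences of the annotation and was at 0 in every library, so its level could not be read.

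Of 10 tested RNA and DNA sensors and adaptors 4 rose and 1 fell, where 18.9% of all tested genes rose and 18.3% fell. With GC and length corrected for 1 rose and 2 fell, where 17.2% of genes rose and 12.1% fell. DDX58, which encodes RIG-I, stood at 71.4 ± 0.845 CPM in knockdown and 47.0 ± 0.866 CPM in control (SD, n = 3 each; log2 fold change 0.60, SE 0.05, edgeR adjusted p = 3.3e-09). TLR3, a receptor for dsRNA, rose by 0.47 on the log2 scale (adjusted p = 0.019), and MAVS, the adaptor below RIG-I, fell (-0.20, adjusted p = 0.0014). Under that correction DDX58 remained past the threshold at 0.48, the calls of TLR3 (0.35, adjusted p = 0.089), IFIH1 (0.18, adjusted p = 0.17) and CGAS (0.10, adjusted p = 0.15) were lost, and IFI16 passed downward (-0.21, adjusted p = 0.0032). DESeq2 also lost the calls of TLR3 (adjusted p = 0.066) and IFIH1 (adjusted p = 0.077). Of 7 kinases and IRF factors, TBK1 (0.35, adjusted p = 1.3e-04) and IRF2 (0.18, adjusted p = 0.026) rose and IKBKE fell (-0.34, adjusted p = 1.2e-04). Of 6 inhibitors, PIAS1, of whose exon bases 32.3% overlap other symbols, rose (0.22, adjusted p = 0.0038), and the phosphatases PTPN6 (-0.58, adjusted p = 1.2e-04) and PTPN1 (-0.15, adjusted p = 0.015) fell. With GC and length corrected for, TBK1 (0.22) and IKBKE (-0.21) kept their calls with smaller values. IRF5 then passed upward (0.38, adjusted p = 0.0032), and PTPN1 lost its call (-0.12, adjusted p = 0.05).

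No tested gene of the MHC class I presentation list, many of whose genes interferon also induces, passed the test upward. Of 16 listed, 10 were tested, none rose by edgeR (0 at an unadjusted p under 0.05, 0 by DESeq2) and 3 fell: TAPBP (-0.70, adjusted p = 4.2e-05), NLRC5 (-0.22, adjusted p = 0.0081) and TAPBPL (-0.39, adjusted p = 0.043). Over all tested genes 18.9% rose and 18.3% fell, so with 10 genes these counts are small either way. The calls of NLRC5 (-0.10, adjusted p = 0.2) and TAPBPL (-0.27, adjusted p = 0.2) were lost with GC and length corrected for, and that of TAPBPL also with DESeq2 (adjusted p = 0.11). TAPBP, annotated on 5 sequences and so undercounted, kept its call under both (-0.51 once corrected). ERAP1 passed downward with the correction (-0.16, adjusted p = 0.029). Most genes of the list lie on several sequences of the annotation, where fragments that align to more than 1 place go uncounted, so their levels are too low. Taken over the 7 lists, 43 of 62 genes were tested, 11 rose and 8 fell, where 18.9% of all tested genes rose and 18.3% fell, with a median log2 fold change of -0.01, the same as over all genes.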

How the data were processed

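Paired-end RNA-seq of 3 VASP knockdown and 3 control libraries of MDA-MB-231 cells was deposited by the authors as raw counts per gene symbol in a table that also gives merged exon lengths. Per the file headers, fragments were counted over the exons of GENCODE release 32, with no option shown for strand, for several alignments or for several overlapping genes. Trim Galore 0.6.4, STAR 2.7.1a, featureCounts 1.6.4 and build hg38 are named in the submitters' processing notes, and aligner settings were not given in the sources used here. Without strand, reads of a gene and of an antisense partner cannot be told apart, and genes with near-identical copies are undercounted.

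The names of the control columns lengthen the title of only 1 control sample, so control libraries are numbered by table order, as names only. Whether libraries stem from separate cultures is not stated, and the p-values cover spread among libraries that may be technical only.

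Counts were filtered with filterByExpr (16633 symbols left), scaled by TMM and tested with edgeR 4.0.16 in R 4.3.3 (glmQLFit, robust, and glmQLFTest, two-sided) with group as the sole term, with Benjamini-Hochberg adjustment over the whole table and a threshold of 0.05. The SE is the size of the log2 fold change divided by the square root of F. CPM are TMM-scaled. The script was tested on simulated data first. Alternatives were RLE size factors, DESeq2 1.42.0, other low-count filters, a 1.2-fold null, a spline correction for GC content and length per library, each library left out, and, added after the data were seen, a replicate block and the third library of both groups left out. GC content came from GENCODE release 29 transcripts by symbol, for 97.4% of tested genes. Promoters came from RefSeq tables (GRCh38.p14), and 9 members without an entry, GBP2, OAS2, MX2, IFITM2, USP18, UBA7, IFIT2, LY6E and OASL, are named only. The windows of LGALS3BP, GBP1 and IFITM3 were chosen after their values were seen. The RefSeq start of a gene can differ from the outermost start in the count table.

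Members and lists were chosen with earlier results of these data known. Detailed values go to members past the threshold whose mean log2 CPM is at least 1 and whose groups do not overlap (up to 20 by size of change), those that fell, and the 2 most abundant per length, and of each pathway list to up to 3 genes past the threshold with the smallest p. All 49 tested members had at least 10 counts in every library. A count of 0 allows up to 3 counts, 0.0998 to 0.104 CPM, and this floor covers counting error only. The result of 1 pathway gene is not reported here.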

Additional observations from a re-analysis of the deposited data

How the results depend on the processing

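All 28 members called kept their direction under every alternative run, and neither RLE size factors nor a filter of 1 CPM in 3 libraries changed a call among members. Against a 1.2-fold null, 12 members rose and 0 fell (0 also at an unadjusted p under 0.05), with 324 genes up and 629 down among all genes and 1 up and 3 down in the pathway lists. The GC and length correction left 1959 of all genes down, and the cause was not tested. Leaving out each library in turn gave 20 to 26 members up and 2 to 9 down. The most fell without control library 3, with BST2, PARP14, IFITM1, IFITM3, UBA7 and GBP2 added. In the same runs 2238 to 3249 of all genes rose and 2243 to 3150 fell, and again the most fell without control library 3. Of the pathway genes, 8 to 10 rose and 5 to 9 fell. DESeq2 lost USP18, EPSTI1 and GBP1. Leaving out the third library of both groups gave 25 members up and 3 down, with 2716 of all genes up and 2668 down. IFIT5, DDX60L, EPSTI1 and GBP1 were lost and IFI6, MX1, CMPK2 and GBP2 gained. Deviations from the group mean correlated at 0.13 over all genes and 0.49 over members between the third libraries, the highest of the pairs. Unequal numbers came near: 0.09 over all genes for knockdown library 2 with control library 1, and 0.43 over members for knockdown library 1 with control library 2. For the first and second libraries of each group the correlation was 0.03 and -0.02 over all genes and 0.32 and 0.09 over members. Equal numbers were therefore not taken as pairs. A replicate block on the last number of the column names gave 26 members up and 5 down, adding MX2, UBA7 and GBP2. With that block 3534 of all genes rose and 3387 fell. Non-overlap above control held in 26 members by TMM, 28 by RLE and 31 by library totals. Low counts limit RSAD2, USP18, EPSTI1 and BST2, and kept CMPK2, RTP4 and XAF1 from the test.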

Other observations

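The GAAA repeat word was also looked up outside the members. Of 399 tested genes that hold it in a promoter window and are not members, 87 rose (21.8%) and 66 fell (16.5%), with a median log2 fold change of -0.009. Over all 10763 tested genes with a window that are not members, 22.5% rose and 20.1% fell, with a median of 0.004.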
